A study of Mus musculus with 16 samples.

Results

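Gata4, Gata6 and Sox17 are the 3 genes described here, chosen by symbol as transcription factor genes of the endoderm. Accessible chromatin around them was read in 16 ATAC-seq libraries, an assay in which a transposase cuts open DNA, of male mouse embryonic stem cells that were being converted into anterior neural progenitor cells. In each library the 50000 deposited peak intervals with the highest −log10 p were kept, and an interval belonged to a gene when its summit lay within 100 kb of a start site of that gene and no other protein-coding gene started closer. By this rule 208 of the 800000 kept intervals belonged to the 3 genes, 100 to Gata4, 59 to Gata6 and 49 to Sox17. Windows of 150 bp on either side of the summits were merged over libraries into regions. The genes held 31 regions, of which 23 had a summit in at least 2 libraries (10 at Gata4, 8 at Gata6 and 5 at Sox17), among 80576 such regions in the genome, and 8 had a summit in 1 library only. A region was called open in a library when a kept peak overlapped it, and closed otherwise.

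Each of the 8 groups held 2 libraries, from 2 differently named cell lines. On day 3 of differentiation these were Tet1 knockout (KO) cells given the Wnt inhibitor XAV939 (XAV), KO cells without it, wild type (WT) cells given CHIR99021 (CHIR), which inhibits GSK3 and thereby activates Wnt signalling, catalytically inactive Tet1 mutant (MUT) cells, and WT cells. On day 2 they were KO, MUT and WT cells. XAV and CHIR were added on day 2, and no group is labelled as given a vehicle alone. The same pair of KO lines, KO1 and KO15, gave the KO libraries of both days and those with XAV. Both MUT lines, CM59 and CM69, were clones made by genome editing of the WT line WT7. The untreated WT libraries of both days came from lines WT70 and WT72, and the CHIR libraries from WT7 and WT34, so that line and treatment cannot be told apart in the comparison of CHIR-treated with untreated WT cells. The KO lines and the lines WT7 and WT34 came from blastocysts of a B6 × 129S6 hybrid strain with the Tet1 allele tm1Koh. Mock-transfected clones of WT7 were also made in the study, and whether WT70 and WT72 are such clones is not given in the labels, so the untreated WT libraries may share 1 parent line, as the MUT libraries do. Cells were kept on mouse embryonic fibroblast feeders, which were depleted by re-plating before differentiation.

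GATA4 and GATA6 are zinc finger proteins that bind GATA sequences, can open closed chromatin, and act in extraembryonic endoderm, definitive endoderm and heart. SOX17 is an HMG box protein of the SOXF family that acts in definitive and primitive endoderm and in endothelium. Definitive endoderm arises in the primitive streak under Nodal and Wnt signals, whereas neural progenitors form where these signals are low. In a bulk library, more cells with an open region and a more open region per cell cannot be told apart.

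Between 161449 and 276451 peaks had been deposited for each library, and read depth is unknown. The −log10 p at which the 50000th interval fell ranged between 6.84, in replicate 2 of the day 3 KO cells (line KO15), and 21.8, in replicate 1 of the day 2 KO cells. The replicate with the lowest limit also had the lowest median fold enrichment of kept intervals, 5.88 against up to 8.57 in other libraries. At its regions a weaker peak therefore counted as open, and each result that rests on it is given below with the values of all libraries. The share of all 80576 regions that was open ranged over 61.4% to 65.1% of regions per library. Regions of 10 neuroectoderm genes were open at 54.2% to 79.2% per library and regions of 8 housekeeping genes at 69.8% to 86.1%. The peak lists do not check the Tet1 genotypes.

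On day 3, Gata6 had more open regions in KO cells and in CHIR-treated WT cells than in the other groups, Gata4 had the fewest in XAV-treated KO cells, and Sox17 had nearly all of its regions open in every group. Of the 8 Gata6 regions, 6 and 5 were open in the KO replicates and 6 and 6 in the CHIR replicates. The count was 3 and 3 with XAV, 2 and 3 in MUT cells and 2 and 2 in WT cells, so KO and CHIR libraries did not overlap with the other libraries of day 3. On day 2 it was 2 and 2 in KO cells, 3 and 3 in MUT cells and 4 and 3 in WT cells. The separation on day 3 is partly built in by how regions were defined. The Gata6 regions at -94.3, +44.5, +56.1 and +74.3 kb were open in KO or CHIR libraries of day 3 only. They met the need for summits in 2 libraries through those groups alone, so the Gata6 count gives no independent support for a difference. Gata4 had 6 of its 10 regions open in each XAV library and 7 and 9 in the CHIR libraries, with 8.5 ± 2.12 in KO cells and 8.5 ± 0.707 in WT cells on day 3 (mean ± SD, n = 2 each). Both XAV libraries were thus below the other libraries of day 3, which had 7 to 10. The day 2 libraries had 6 to 8, with 6 in replicate 2 of the KO cells. Sox17 had 4 or 5 of its 5 regions open in every library. These counts are a description, since 2 libraries against 2 allow no exact permutation p under 0.333.

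**Figure D1:**
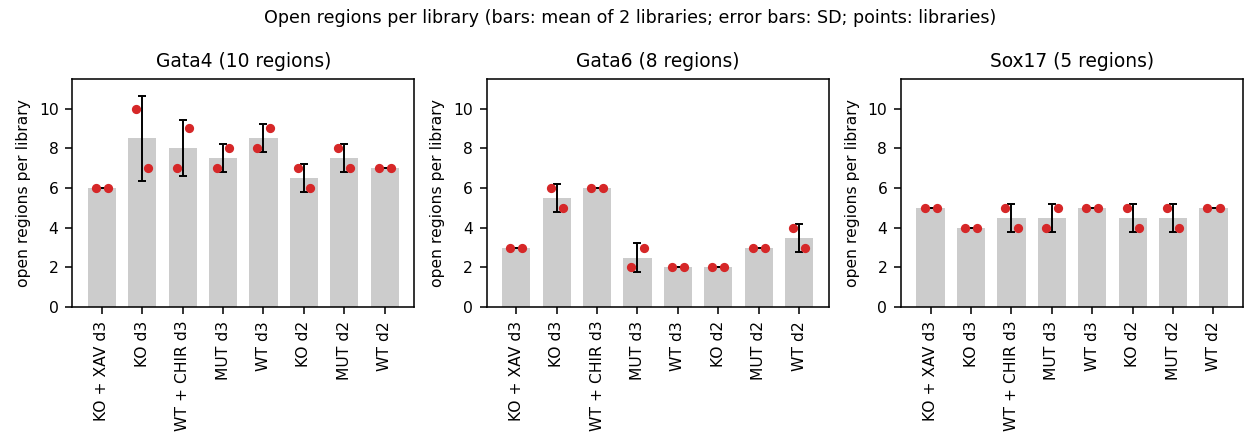
Number of open regions per library (y axis) for Gata4, Gata6 and Sox17 in the 8 groups (x axis), with bars for the mean of 2 libraries, error bars for the SD and points for libraries. The Gata6 points of KO and CHIR-treated cells on day 3 lie at 5 or 6, and those of the other groups at 2 to 4. Some Gata6 regions were defined only through summits in those KO and CHIR libraries.

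Among the 23 regions, 9 were open in all 16 libraries, 8 in 5 to 15 libraries and 6 in 4 or fewer. Of all consensus regions in the genome, 33.57% were open in all 16 libraries. Shares of all regions in the other classes are not given here, so those counts are a description. The regions open in 4 or fewer libraries were mostly those of Gata6, with 5 of its 8 regions in this class, against 1 of 10 at Gata4 and 0 of 5 at Sox17. Most regions lay away from the start sites: 8 of 10 at Gata4, 7 of 8 at Gata6 and 2 of 5 at Sox17 were farther than 3 kb from a start.

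**Figure D2:**
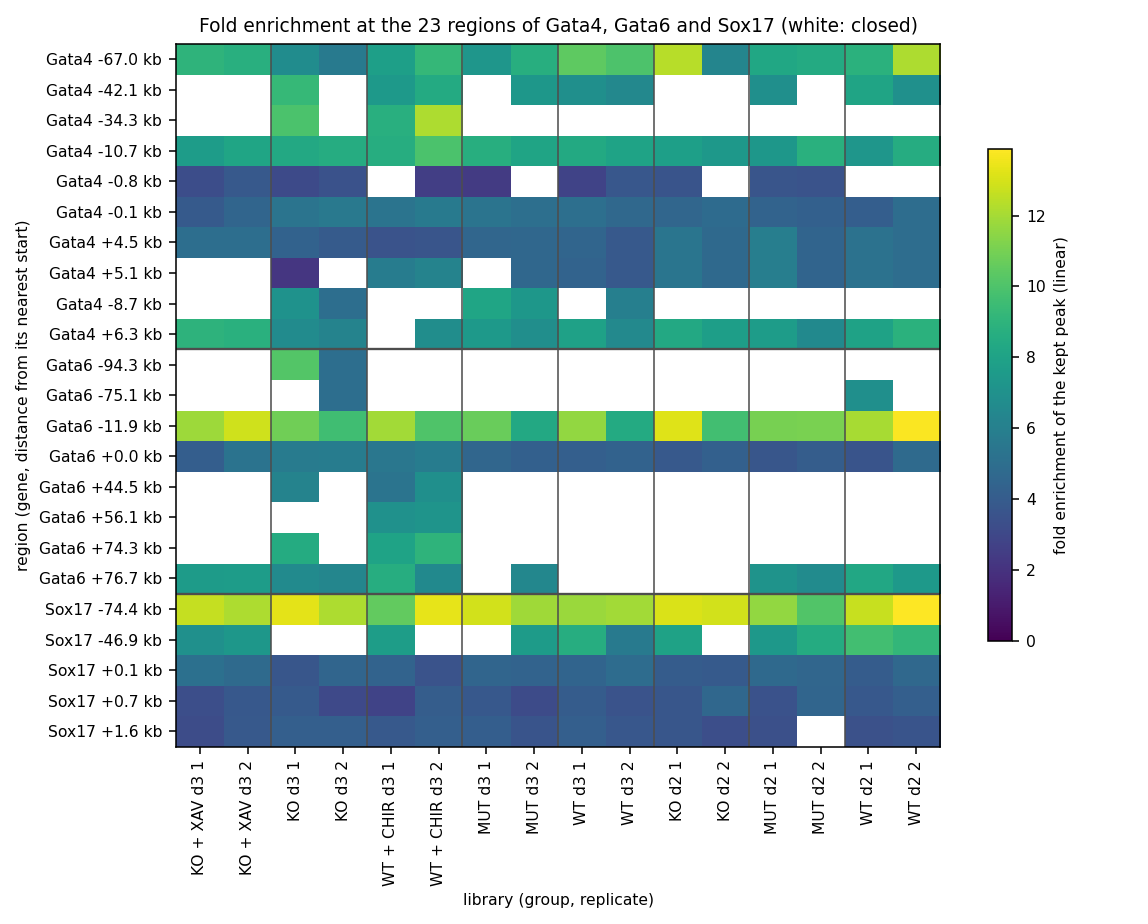
Fold enrichment of the kept peak (colour, linear scale) at the 23 regions (rows, named by gene and distance in kb from the nearest start site, in order along each gene) in the 16 libraries (columns). White marks a closed region. Rows without white are the 9 regions open in every library, and the 5 Gata6 rows with 4 or fewer coloured cells carry colour in KO and CHIR columns of day 3, apart from 1 cell of WT cells on day 2.

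Sox17 lies on chromosome 1, on the minus strand (chr1:4490931-4497354, mm10), with 7 start sites of protein-coding transcripts. The most downstream start is at chr1:4493735. The other starts lie between chr1:4496330 and chr1:4497354, where Sox17 had no region. The Sox17 region nearest to a start, at chr1:4493376-4493810 in a UTR by the annotation, holds the most downstream start and was open in all 16 libraries. Fold enrichments there were 5.13 and 4.82 with XAV, 3.71 and 4.52 in KO cells, 4.39 and 3.52 with CHIR, 4.51 and 4.44 in MUT cells and 4.45 and 4.88 in WT cells on day 3. On day 2 they were 4.01 and 3.94 in KO cells, 4.74 and 4.60 in MUT cells and 4.01 and 4.67 in WT cells. KO and WT libraries of day 3 overlapped, as did CHIR and KO libraries, while both XAV libraries were above both KO libraries and overlapped with WT cells. An intergenic region 74.4 kb upstream (chr1:4571525-4572043) was the strongest of the gene and was also open in every library, at 10.1 to 13.9. The regions 0.7 and 1.6 kb downstream of a start were open in 16 and 15 libraries.

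The 46.9 kb upstream region of Sox17 (chr1:4544034-4544414, intergenic) was the only region of the 3 genes that KO cells lost on day 3. It was open in both XAV libraries at 6.99 and 7.34, closed in both KO libraries of day 3, and open in both WT libraries of day 3 at 8.65 and 5.67. The KO libraries of day 3 did hold deposited peaks below the limit there, at 5.79 and 3.96, and their range overlapped with that of WT cells. It was open in 1 of 2 CHIR libraries (7.71, with a peak of 5.98 below the limit in the other) and in 1 of 2 MUT libraries of day 3 (7.62, and 5.10 below the limit). On day 2 it was open in all MUT and WT libraries at 7.38 to 9.66 and in 1 of 2 KO libraries, at 8.01, with 3.71 below the limit in line KO15. In a fit of regions that any deposited peak overlapped in all 16 libraries, KO cells differed from WT cells there by -0.42 ± 0.24 on the log2 scale on day 3 (SE, n = 2 each, limma, adjusted p = 0.523).

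Reference sequence of 300 bases around the centres of 4 regions is printed here because the day 3 calls at Sox17 and Gata4 rest on the first 3 of them: the region that KO cells lost (Sox17 -46.9 kb), the region that CHIR-treated cells gained (Gata4 -34.3 kb), the region that XAV-treated KO cells lost (Gata4 -8.7 kb) and a region beyond the 100 kb limit that was open in KO and CHIR libraries of day 3 only (Sox17 -118.2 kb, picked after its values were seen). All are on the plus strand of GRCm38, which shares coordinates with mm10, at chr1:4544074-4544373, chr14:63305869-63306168, chr14:63222182-63222481 and chr1:4615358-4615657. Capitals mark words of known factor families, searched on both strands: TCF/LEF (CTTTGAT or CTTTGAA), the GATA factors (AGATAA or AGATAG or TGATAA or TGATAG), forkhead (TGTTTAC or TGTTTGC), T-box (GGTGTGA), SOX (ACAATGG or ACAAAGG) and bicoid-type homeodomain (GGATTA). No marked words overlap.
Sox17 -46.9 kb: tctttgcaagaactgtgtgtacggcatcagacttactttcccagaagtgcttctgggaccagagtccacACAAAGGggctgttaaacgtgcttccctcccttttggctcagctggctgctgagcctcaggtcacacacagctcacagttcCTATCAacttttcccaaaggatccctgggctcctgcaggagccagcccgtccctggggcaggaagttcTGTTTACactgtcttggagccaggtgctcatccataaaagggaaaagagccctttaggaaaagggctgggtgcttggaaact
Gata4 -34.3 kb: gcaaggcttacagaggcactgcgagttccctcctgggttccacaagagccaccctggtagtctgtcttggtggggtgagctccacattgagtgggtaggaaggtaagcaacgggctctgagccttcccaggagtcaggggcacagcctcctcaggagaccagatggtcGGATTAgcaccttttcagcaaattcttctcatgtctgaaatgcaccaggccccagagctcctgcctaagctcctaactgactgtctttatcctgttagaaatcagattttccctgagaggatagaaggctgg
Gata4 -8.7 kb: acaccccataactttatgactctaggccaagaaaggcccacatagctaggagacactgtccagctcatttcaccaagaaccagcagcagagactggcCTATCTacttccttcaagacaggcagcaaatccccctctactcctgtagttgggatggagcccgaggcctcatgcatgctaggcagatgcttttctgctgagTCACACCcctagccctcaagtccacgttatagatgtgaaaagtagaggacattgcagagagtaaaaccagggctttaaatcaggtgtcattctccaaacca
Sox17 -118.2 kb: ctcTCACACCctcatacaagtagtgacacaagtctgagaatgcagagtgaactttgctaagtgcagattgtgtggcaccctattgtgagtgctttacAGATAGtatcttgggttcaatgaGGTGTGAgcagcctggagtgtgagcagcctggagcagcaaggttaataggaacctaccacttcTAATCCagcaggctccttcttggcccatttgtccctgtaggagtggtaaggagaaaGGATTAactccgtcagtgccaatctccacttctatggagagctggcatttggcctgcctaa

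The Sox17 -46.9 kb window held 1 SOX, 1 GATA and 1 forkhead word, and the Gata4 -34.3 kb window 1 bicoid-type homeodomain word. The Gata4 -8.7 kb window held 1 GATA and 1 T-box word. The Sox17 -118.2 kb window held 2 T-box words, 2 bicoid-type homeodomain words and 1 GATA word, and none of the 4 windows held a TCF/LEF word. Among windows of the same length over all 80576 regions, 10.9% held a TCF/LEF word, 27.8% a GATA word, 9.14% a forkhead word, 5.82% a T-box word, 11.9% a SOX word and 8.63% the bicoid-type word. Of the 15 windows of Gata4 and Sox17, 4 held a GATA word and 1, at Gata4 -42.1 kb, a region called on day 2 and not printed, a TCF/LEF word. A word is a match of letters and says nothing of binding.

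Gata4 lies on chromosome 14, on the minus strand (chr14:63198922-63271692), and its protein-coding transcripts start at 5 sites in 3 clusters, so that a region can lie inside the gene and still upstream of a start. At the middle cluster the region chr14:63245156-63245504 was open in all 16 libraries. Fold enrichments were 3.94 and 4.51 with XAV, 5.33 and 5.62 in KO cells, 5.32 and 5.71 with CHIR, 5.36 and 5.05 in MUT cells and 5.08 and 4.68 in WT cells on day 3. On day 2 they were 4.56 and 4.86 in KO cells, 4.43 and 4.26 in MUT cells and 4.12 and 4.97 in WT cells. The XAV libraries were below all other libraries of day 3, and KO libraries overlapped with MUT libraries. In limma the XAV-treated KO cells differed from KO cells at this region by -0.55 ± 0.14 on the log2 scale (SE, n = 2 each, adjusted p = 0.104). The difference was -0.73 without replicate 1 of the KO cells (adjusted p = 0.0212) and -0.37 without replicate 2 (adjusted p = 0.668), where the lone KO library was assumed to vary like the other groups. The other Gata4 regions open in every library lay in a coding exon 4.5 kb downstream of a start, in an intron 10.7 kb upstream and in an intron of Gm5463 67.0 kb upstream.

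The intergenic region 34.3 kb upstream of Gata4 (chr14:63305858-63306180) was open with CHIR, at 8.77 and 12.1, in KO replicate 1 of day 3, at 9.92, and in no other library. Below the limit, the XAV libraries held peaks of 3.91 and 3.36, the other KO replicate of day 3 one of 3.85, the MUT libraries of day 3 peaks of 5.10 and 3.05, and the WT libraries of day 3 peaks of 5.19 and 2.33. On day 2 the peaks reached 2.89 in KO cells, 2.14 in MUT cells and 4.08 in WT cells. The 3 open libraries were thus above all others by fold enrichment as well. The neighbour 42.1 kb upstream (chr14:63313661-63314003) was open in 9 libraries, but in neither KO library of day 2, against both WT libraries of day 2, at 8.12 and 6.95. Replicate 1 of those KO cells, the library with the highest limit, had a deposited peak of 7.57 there, inside the range of the WT libraries, and replicate 2 a peak of 4.29. In MUT cells of day 2 it was open at 6.90 in replicate 1 and closed, with 5.80, in replicate 2. On day 3 it was closed with XAV (4.86 and 6.42 below the limit), open in KO replicate 1 at 9.27 (3.55 below the limit in replicate 2), open with CHIR at 7.51 and 8.50, open in MUT replicate 2 at 7.32 (5.03 below the limit in replicate 1) and open in WT cells at 6.92 and 6.48.

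The intronic region 8.7 kb upstream of the innermost Gata4 start (chr14:63222146-63222517) was open in day 3 libraries only, in 5 of the 6 untreated ones. With XAV it was closed in both libraries (4.86 and 2.75 below the limit), and with CHIR as well (3.25 and 4.86). It was open at 7.08 and 5.04 in KO cells, at 8.15 and 7.32 in MUT cells and at 6.00 in WT replicate 2, with 4.50 below the limit in WT replicate 1. The 6 libraries of day 2 held peaks of 2.41 to 4.67 there, all below the limit and, apart from the 4.50 of WT replicate 1, below every untreated library of day 3. The region met the need for summits in 2 libraries through untreated libraries of day 3 alone. Tests of day 3 against day 2 thus give no independent support for a difference there. Fisher's exact test of the open state, day 3 against day 2, gave p = 0.0152 for 5 of 6 against 0 of 6 libraries, with an adjusted p of 0.446 over all regions. In the fit of regions with any deposited peak in all libraries, the same contrast was 0.86 ± 0.16 on the log2 scale (SE, n = 6 each, limma, adjusted p = 0.00142, in a fit in which 7539 of 56527 regions passed), and XAV-treated KO cells differed from KO cells by -0.94 ± 0.28 (n = 2 each, adjusted p = 0.0952). The region 0.8 kb upstream of the middle cluster (chr14:63245863-63246220) was open in both MUT libraries of day 2, at 3.65 and 3.56, and closed in the WT libraries of day 2 although these held peaks of 3.31 and 4.10. Its kept peaks were weak in all groups: 3.30 and 3.90 with XAV, 3.11 and 3.52 in KO cells, 2.59 in CHIR replicate 2, 2.39 in MUT replicate 1 and 2.79 and 3.78 in WT cells on day 3, and 3.61 in KO replicate 1 on day 2. The last Gata4 regions lay 5.1 and 6.3 kb downstream of a start and were open in 12 and 15 libraries.

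The start region of Gata6 was open in all 16 libraries and ranked highest in KO and CHIR-treated cells of day 3. Gata6 is on the plus strand of chromosome 18 (chr18:11052064-11085635), with 3 start sites, and the region chr18:11052275-11052726 overlaps its UTR. Fold enrichments were 4.12 and 5.29 with XAV, 5.75 and 5.82 in KO cells, 5.50 and 5.85 with CHIR, 4.59 and 4.27 in MUT cells and 4.18 and 4.37 in WT cells on day 3. On day 2 they were 3.89 and 4.25 in KO cells, 3.72 and 4.10 in MUT cells and 3.59 and 4.77 in WT cells. The 4 KO and CHIR libraries were above the other 12, although XAV replicate 2 lay close to them. In limma, the differences were 0.55 ± 0.15 for KO against WT on day 3 (adjusted p = 0.142), 0.43 ± 0.15 for CHIR-treated against untreated WT (adjusted p = 0.131) and -0.48 ± 0.15 for XAV-treated against untreated KO (adjusted p = 0.217; log2 scale, SE, n = 2 each). None of them passed an adjusted p of 0.05. Leaving out a library at a time they ranged over 0.40 to 0.70 for KO, 0.31 to 0.55 for CHIR and -0.65 to -0.31 for XAV, with the smallest XAV difference without XAV replicate 1.

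**Figure D3:**
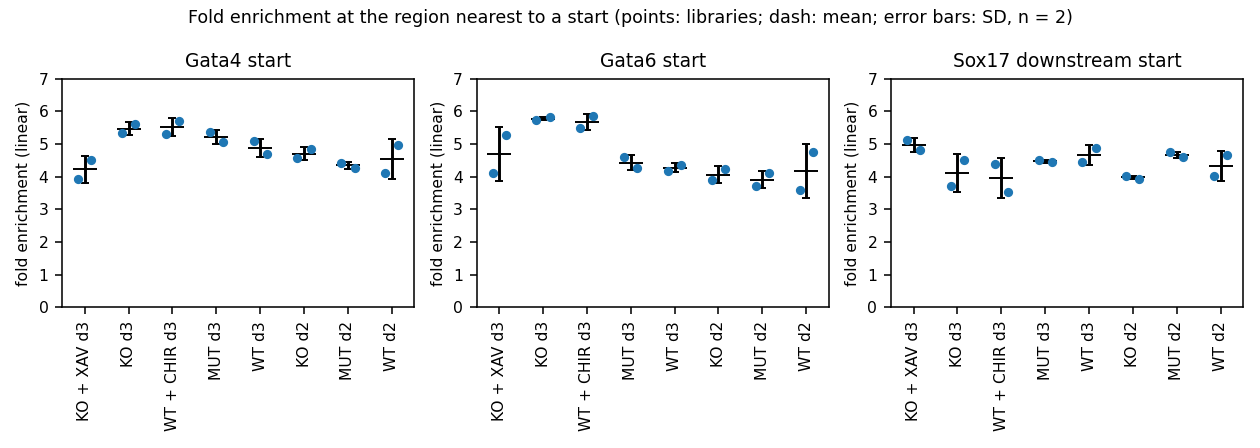
Fold enrichment (y axis, linear) at the region nearest to a start of each gene in the 8 groups (x axis), with points for libraries, a dash for the mean and error bars for the SD of 2 libraries. For Sox17 this is the most downstream start. At Gata6 the KO and CHIR libraries of day 3 lie between 5.50 and 5.85, above the 4.18 and 4.37 of WT cells, and at Sox17 the KO and WT libraries of day 3 overlap.

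Of the distal Gata6 regions, one was open in the KO libraries of day 3 alone and one in the CHIR libraries alone. The intergenic region 94.3 kb upstream (chr18:10957626-10957935) was open at 10.2 and 5.04 in KO cells of day 3 and closed in the other 14 libraries. The XAV libraries held no peak of any strength there, CHIR-treated cells held weaker ones of 4.55 and 3.74, WT replicate 2 of day 2 held one of 2.72, and the lists of the remaining libraries held none. The region 56.1 kb downstream of the start (chr18:11108940-11109319, intergenic) was open with CHIR, at 7.01 and 7.19, and no other library had a deposited peak of any strength there.

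A pair of intergenic regions downstream of Gata6 was open in both CHIR libraries and in KO replicate 1 of day 3. At 44.5 kb (chr18:11097347-11097712) the values were 6.19 in KO replicate 1 and 5.36 and 6.92 with CHIR. At 74.3 kb (chr18:11127174-11127502) they were 8.52 in KO replicate 1 and 8.06 and 9.04 with CHIR. KO replicate 2 had no peak at the first and one of 3.60 below the limit at the second, and the WT libraries of day 3 had none at either. Elsewhere the deposited peaks at these regions reached 4.89 in XAV replicate 2, at the first, and 4.08 in WT replicate 2 of day 2, at both.

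The region 76.7 kb downstream of the Gata6 start (chr18:11129518-11129917, intergenic) was open in 11 libraries. By open state it differed between KO and WT cells in opposite directions on day 3 and day 2. On day 3 it was open at 7.60 and 7.64 with XAV, at 6.65 and 6.34 in KO cells and at 8.65 and 6.57 with CHIR, and closed in WT cells, which had peaks of 5.19 and 4.67 below the limit. On day 2 it was closed in KO cells, with peaks of 6.90 and 2.78 below the limit, and open at 8.34 and 7.48 in WT cells. In MUT cells it was open in 1 of 2 libraries of day 3, at 6.40, and in both of day 2, at 7.14 and 6.71. The 6.90 of the closed day 2 KO replicate was above the values of 5 libraries in which the region was open, and this library had the highest limit.

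The 2 remaining Gata6 regions were an intronic one of 1010001N08Rik 11.9 kb upstream, open in every library at 8.35 to 13.8 and the strongest of the gene, and one 75.1 kb upstream, open in KO replicate 2 of day 3 at 5.04 and in WT replicate 1 of day 2 at 6.90. At the latter, KO replicate 1 of day 3 was closed with a higher peak, of 6.12, which shows the lower limit of replicate 2.

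KO against WT cells on day 3 asked what loss of TET1 does at these genes. KO cells gained 2 of the 23 regions, both at Gata6 (94.3 kb upstream and 76.7 kb downstream), which is 8.70% of the regions beside 3.93% of all 80576 regions, and lost 1, at Sox17, which is 4.35% beside 4.2%. Gained means open in each KO library and closed in each WT library, and lost the reverse, with the same rule in the other pairs of groups. The region 94.3 kb upstream of Gata6 met the need for summits in 2 libraries through the KO libraries of day 3 alone. Its call thus gives no independent support for a difference. Without replicate 2 of the KO cells, the library with the lowest limit, KO cells gained 4 and lost 1 of the 20 regions left (6.99% and 6.93% of all regions), and without replicate 1 they gained 2 and lost 3 of 22 (6.17% and 7.65% of all). With XAV, KO cells gained 1 region relative to untreated KO cells, at Sox17 -46.9 kb (4.89% of all regions were gained), and lost 2, Gata4 -8.7 kb and Gata6 -94.3 kb (4.16% of all regions were lost), or 6 of 20 without replicate 2 of the untreated KO cells (7.30% of all). The Sox17 -46.9 kb and Gata6 -94.3 kb calls thus went one way in KO against WT and the other way in XAV-treated against untreated KO, comparisons that share the KO libraries.

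CHIR-treated against untreated WT cells asked what Wnt activation does without loss of TET1. The treated cells gained 5 of 23 regions, 1 at Gata4 and 4 at Gata6 (44.5, 56.1, 74.3 and 76.7 kb downstream), which is 21.7% beside 11.0% of all regions, and lost 0 beside 9.03%. All but the last were open in CHIR libraries and KO replicate 1 of day 3 at most. They met the need for summits in 2 libraries through those libraries alone, so the share gained is a description and gives no independent support. Without CHIR replicate 1 or 2 the treated cells lost 1 or 2 regions, and without WT replicate 1 they lost 1. MUT cells gained 0 and lost 0 of the regions relative to WT cells on day 3, beside 1.9% and 1.93% of all regions. Leaving out a MUT or WT library of that day gave MUT cells at most 1 gained and 3 lost regions, the 3 without MUT replicate 2. Leaving out a library of a pair loosens the rule over all regions as well, as in the KO runs above. The shares of all regions in these CHIR and MUT runs are not given here, so their counts are not read as results about the genes. On day 2, KO cells gained 0 regions relative to WT cells (1.97% of all) and lost 2, Gata4 -42.1 kb and Gata6 +76.7 kb (2.17% of all), and MUT cells gained 1, Gata4 -0.8 kb (1.73% of all), and lost 0 (1.63% of all). In 3 of these 14 calls (Sox17 -46.9 kb in KO against WT on day 3, Gata4 -42.1 kb and Gata4 -0.8 kb on day 2) a closed library held a deposited peak as strong as one in an open library, so the fold enrichments of the groups overlapped although the calls did not.

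None of the 23 regions was open in all 4 KO and CHIR libraries of day 3 and closed in all 6 WT, MUT and XAV libraries, or the reverse, against 0.786% and 0.663% of all regions. Gata4 -34.3 kb, Gata6 +44.5 kb and Gata6 +74.3 kb came closest, each with 3 of 4 against 0 of 6 libraries open (Fisher's exact test, two-sided, p = 0.0333 each, adjusted p = 0.701), and in each the KO library that was closed was replicate 2. Without that library these 3 regions met the rule by construction, as did 1.74% of all regions. The 3 regions were open in KO and CHIR libraries of day 3 only. They thus met the need for summits in 2 libraries through the tested group, and their p-values give no independent support for a difference. No region of the genome passed an adjusted p of 0.05 by this test, the smallest being 0.329, and 4243 regions had an unadjusted p under 0.05. Between the untreated libraries of day 3 and day 2, none of the 23 regions was open in all 6 of one day and in none of the other, beside 0.302% of all regions gained and 0.751% lost on day 3, and 0 regions passed an adjusted p of 0.05 (smallest 0.206, with 2737 unadjusted p-values under 0.05).

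Fold enrichment was tested with limma at the 27046 regions that were open in all 16 libraries, 9 of them at the 3 genes. None of the 9 passed an adjusted p of 0.05 in any comparison with all libraries. Over all regions the share that passed was 0.174% for KO against WT on day 3, 4.27% for CHIR-treated against untreated WT, 0.314% for XAV-treated against untreated KO, and 6.92% for day 3 against day 2 in untreated cells. It was 0.0% for MUT against WT on day 3 (1350 regions at an unadjusted p under 0.05), for KO against WT on day 2 (917), for MUT against WT on day 2 (734) and for the change of the KO effect between the days (1321). With the cell line as a block, 150 regions passed for XAV-treated against untreated KO cells in place of 85, none of them at the 3 genes. Between day 3 and day 2 the Gata6 start region was higher on day 3 by 0.27 ± 0.09 (log2 scale, SE, n = 6 each, adjusted p = 0.0678), and with the cell line as a block it passed, with an adjusted p of 0.0439. Without KO replicate 1 of day 3 the same contrast passed there (adjusted p = 0.0264) and at the middle Gata4 start (0.28, adjusted p = 0.0277). Without KO replicate 2 of day 2 it passed at the Gata6 start (adjusted p = 0.0346) and 67.0 kb upstream of Gata4 (-0.31, adjusted p = 0.034), and without MUT replicate 2 of day 2 in the Gata4 coding exon (-0.29, adjusted p = 0.0486). The KO effect at the Gata6 start was 0.47 ± 0.22 larger on day 3 than on day 2 (adjusted p = 0.997). The Gata4 region 67.0 kb upstream had 6.75 and 5.69 in KO cells against 10.4 and 9.99 in WT cells on day 3, a difference of -0.61 ± 0.18 (log2 scale, SE, adjusted p = 0.169).

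**Figure D4:**
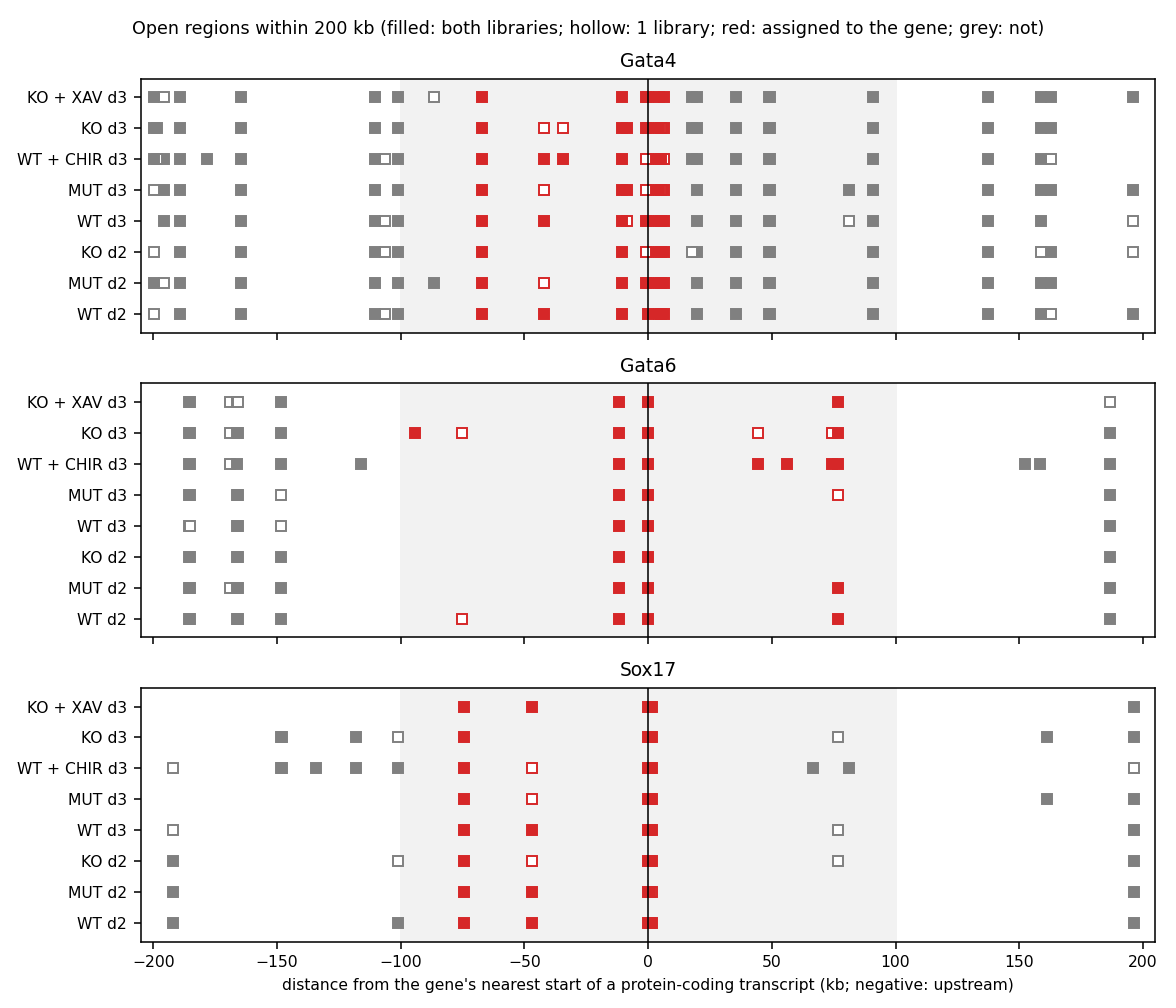
Open regions (squares) within 200 kb of a start of each gene by distance (x axis, kb) in the 8 groups (rows), filled where both libraries and hollow where 1 library was open. Red regions were assigned to the gene and grey ones to no gene or to a neighbour, and the shaded band marks the 100 kb limit. Red squares appear 94.3 kb upstream of Gata6 in the KO row of day 3 alone and 56.1 kb downstream in the CHIR row alone.

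Other genes of the endoderm, of related families and of the cell types the cultures could hold were counted by the same rule. For scale, the genome-wide shares for KO against WT on day 3 were 3.93% gained and 4.2% lost. With CHIR these shares were 11.0% and 9.03%, for XAV-treated against untreated KO cells 4.89% and 4.16%, and for MUT cells 1.9% and 1.93%. Whether a list departs from these shares was not tested. The 127 regions of 16 definitive endoderm genes had 13.4% gained and 2.36% lost in KO against WT cells on day 3, 24.4% gained and 7.87% lost with CHIR, and 3.15% gained and 14.2% lost in XAV-treated against untreated KO cells. MUT cells gained 0.787% and lost 2.36% of them. The share of the definitive endoderm regions that was open was 59.8% and 60.6% in KO cells and 60.6% and 58.3% with CHIR, against 48.0% and 51.2% with XAV, 53.5% and 46.5% in MUT cells and 48.0% and 46.5% in WT cells. Regions defined only through summits in KO or CHIR libraries can raise the share in those groups, so it gives no independent support. The most regions were gained with CHIR by Cxcr4, a chemokine receptor gene (8 of 13), Lhx1, a LIM homeodomain factor of the streak and its derivatives (7 of 14), and Hand1, a factor of lateral and cardiac mesoderm (6 of 13), and in KO cells by Foxa2, a forkhead factor of endoderm and axial mesoderm (5 of 19), Gsc, a homeodomain factor of the organizer (4 of 8), and, tied, Lhx1 (3 of 14) and the housekeeping gene Ywhaz (3 of 17). The 43 regions of housekeeping genes had 9.3% gained in KO cells, above the 8.70% of the 3 genes, and 6.98% with CHIR. The 62 regions of extraembryonic endoderm genes had 19.4% gained with CHIR and 3.23% in KO cells, and the 85 regions of cardiac mesoderm genes and GATA partners 18.8% and 2.35%.

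The other GATA genes (Gata1, Gata2, Gata3 and Gata5, 25 regions) had 0 regions gained and 3 lost in KO cells and 1 gained and 3 lost with CHIR on day 3. The 5 regions of Sox7 and Sox18, the other SOXF genes, had 0 gained and 0 lost in both. Among the other lists, with CHIR fibroblast regions had 15.9% lost, pluripotency regions 15.3% and neuroectoderm regions 13.5%, beside 9.03% genome-wide. Esrrb, a pluripotency factor gene, lost the most with CHIR (4 of 18). Tied behind it, Utf1 lost 3 of 9, Mef2c 3 of 18 and Otx2 3 of 15, and in KO cells no gene of the lists lost more than 2 regions. The 44 regions of 8 fibroblast genes, which would mark leftover feeder cells, had 18.2% lost in KO cells, beside 4.2% genome-wide. These regions were open at 56.8% and 54.5% in KO cells against 72.7% and 79.5% in WT cells on day 3. The part of feeder cells left after their depletion in the results at the 3 genes was not tested.

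**Figure D5:**
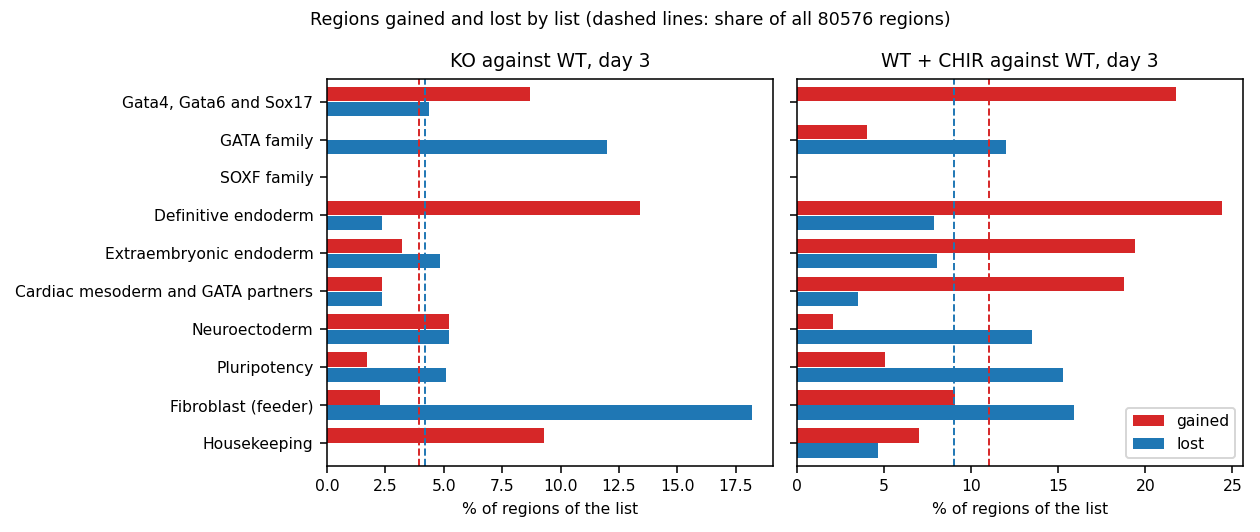
Share of the regions of each list that was gained (red) or lost (blue) in KO against WT cells on day 3 (left) and in CHIR-treated against untreated WT cells (right), on the x axis in percent, with dashed lines for the share of all 80576 regions. Gata4, Gata6 and Sox17 stand at 8.70% gained in KO cells and 21.7% with CHIR, definitive endoderm genes at 13.4% and 24.4%, and housekeeping genes at 9.3% and 6.98%. Some of the gained regions at Gata4 and Gata6 were defined only through summits in KO and CHIR libraries of day 3.

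The genes whose share of open regions followed that of each factor most closely over the 16 libraries, among 5257 genes with at least 5 regions, were Srprb, Evx1 and Kcnip1 for Gata6 (Pearson r of 0.917, 0.913 and 0.913), Prkar2b, Pcdh9 and Rgs4 for Sox17 (0.775, 0.757 and 0.745) and Txlnb, Scgb1a1 and Insig2 for Gata4 (0.747, 0.747 and 0.739). The libraries share lines and limits, and the highest of 5257 values is given as a description. Among the 3 genes themselves, r was 0.382 for Gata6 with Gata4, -0.299 for Gata6 with Sox17 and -0.159 for Gata4 with Sox17.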

How the data were processed

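Omni-ATAC libraries had been made from the 16 samples, and the authors ran the ENCODE ATAC-seq pipeline on mm10 to call peaks per library. Aligner and caller versions: not given in the sources used here, which name none. Each deposited peak list gave a fold enrichment over background at the summit, a ratio, with a −log10 p, a −log10 q and a summit offset, and no read counts, so depth is unknown and its part in a call cannot be measured. The authors' 2 lists of regions that differ between KO and WT cells on day 3, made with DiffBind 3.0.15 by the submitters' processing notes, hold their own comparison and were not used.

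The 50000 intervals with the highest deposited −log10 p were kept per library. Summits were assigned to the nearest start of a protein-coding transcript in GENCODE M21 (GRCm38.p6, mm10 coordinates), within 100 kb. Summit windows were merged, regions needed a summit in at least 2 libraries, and a region was open with at least 1 bp of overlap. Its value was the highest fold enrichment of a kept peak. A deposited peak below the limit of its library is named where a closed region held one.

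A gained region was open in both libraries of one group and in neither of the other, with the reverse for lost. Open states of 4 against 6 and 6 against 6 libraries were tested with Fisher's exact test over all regions. Log2 fold enrichment, centred per library on the median, was fitted with limma 3.58.1 (trend, all 8 groups in 1 fit), with Benjamini-Hochberg adjustment over all regions tested. Both tests were tested on simulated data first. Replicates are differently named cell lines that can share a parent line, so p-values measure only the spread between these lines, and replicate 2 of each day 2 group is marked as merged in its deposited list. Some groups shared cell lines, but the main tests did not pair them. The line entered only in alternatives, as a block in limma and in a test of the open state by line. Replicate deviations correlated at 0.363 between KO cells of day 3 and day 2. They correlated at -0.018 for MUT, 0.085 for WT and 0.01 for XAV-treated and untreated KO cells.

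Values are given for the region nearest to a start of each gene and for each region gained or lost in a pair of groups. Of the lists, the 3 genes with the most regions gained and lost in KO or CHIR-treated cells are named, with ties, and for likeness the 3 genes with the highest r. The genes, lists and alternatives were chosen with earlier results of these data known. So was the grouping of KO and CHIR libraries against the other libraries of day 3. Alternatives were 30000 or 100000 peaks, all peaks with a −log10 q of at least 2, 50% coverage, other distances, no centring, quantile normalization, the cell line as a block, and leaving out each library. Python 3.11.15 with pandas 2.3.3 and scipy 1.17.1, R 4.3.3 and samtools 1.23.1 were used.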

Additional observations from a re-analysis of the deposited data

Results flagged for a closer look

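At the Gata6 region 76.7 kb downstream of the start, the open-state calls of KO against WT cells had opposite directions on day 3 and day 2. On day 3 the number of open libraries in KO minus WT cells was 2 (both KO libraries and neither WT library), and on day 2 it was -2. The difference in open state was not tested. Replicate 1 of the day 2 KO cells, closed there and the library with the highest limit, had a peak of 6.90 below it. That value was above those of 5 libraries in which the region was open. In the fit of regions with any deposited peak in all 16 libraries, KO cells differed from WT cells in fold enrichment by 0.53 ± 0.27 on day 3 and by -0.76 ± 0.27 on day 2 (log2 scale, SE, n = 2 each), and the change of the effect between the days was 1.29 ± 0.38 (limma, adjusted p = 0.39). Of the 4 settings that could change an open state, the call was made on both days in 1 (50% coverage) and not with 30000 peaks, 100000 peaks or all peaks by q.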

How the results depend on the processing

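Read depth is unknown, 2 libraries a group allow no p for a gained or lost region, and the open state depends on how many peaks are kept. No fold enrichment result at the 3 genes was called with the opposite sign in a setting tried, and 8 single-region differences passed the threshold in an alternative only, 6 of them when a library was left out. The balance of gained and lost regions did turn on day 2: KO cells had 0 gained and 2 lost, but 2 and 0 with 100000 peaks, and MUT cells 1 gained and 0 lost, but 0 and 1 with 30000 peaks and 0 and 6 with all peaks by q. The mean number of open regions of the 3 genes per library was 15.5, and 7.188 with 30000 peaks, 29.125 with 100000 peaks, 39.062 with all peaks by q (70 regions) and 12.25 within 50 kb. With 30000 peaks (13 regions), KO cells gained 0 regions on day 3 (3.63% of all regions). XAV-treated KO cells gained 0 and lost 0 relative to KO cells (4.74% and 3.79%). On day 2, KO cells lost 0 (2.21%), and MUT cells gained 0 and lost 1 (1.74% and 1.79%). With 100000 peaks (51 regions), KO cells gained 4 and lost 4 on day 3 (3.59% and 4.23% of all regions), MUT cells lost 2 (1.97%), CHIR-treated cells lost 4 (8.24%), XAV-treated cells gained 3 and lost 7 (5.18% and 3.79%), and on day 2 KO cells gained 2 and lost 0 (2.07% and 2.33%) and MUT cells gained 2 and lost 1 (1.79% and 1.76%). With all peaks by q the counts were 4 gained and 2 lost in KO cells of day 3 (1.91% and 3.37% of all regions), 1 lost in MUT cells (1.67%), 9 gained and 3 lost with CHIR (9.07% and 6.49%), 4 gained and 4 lost with XAV (6.33% and 1.50%), and on day 2 1 gained and 4 lost in KO cells (1.56% and 1.64%) and 0 gained and 6 lost in MUT cells (1.40% and 2.39%). Within 50 kb (16 regions), KO cells gained 0 (3.93% of all regions) and CHIR-treated cells gained 2 (11.0%). XAV-treated cells lost 1 (4.16%) and KO cells of day 2 lost 1 (2.17%). Within 200 kb (30 regions), a limit added after the data were seen, CHIR-treated cells gained 11, or 36.7% beside 11.0% of all regions. MUT cells of day 2 lost 1, or 3.33% beside 1.63%. The regions open in KO and CHIR libraries of day 3 alone numbered 1 with 100000 peaks (Gata6 +74.3 kb, with 1 of the reverse), 2 by q and 1 within 200 kb (Sox17 -118.2 kb). Over all regions the share was 0.692% with 100000 peaks (0.522% for the reverse), 0.313% by q and 0.786% for the 200 kb limit. Of the 4 settings that could change an open state, Gata6 +74.3 kb was gained with CHIR in 4, and in all 16 runs that left out a library. Gata6 -94.3 kb was gained in KO cells in 3 of the 4, but not without either KO library of day 3, since a region needed summits in 2 libraries.

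Leaving out a library at a time, gained regions ranged over 2 to 4 and lost ones over 1 to 3 in KO cells of day 3, over 0 to 1 and 0 to 3 in MUT cells of day 3, over 4 to 5 and 0 to 2 with CHIR, at 1 and over 2 to 6 with XAV, over 0 to 1 and 2 to 3 in KO cells of day 2, and over 0 to 1 and 0 to 2 in MUT cells of day 2. These ranges stand without the shares of all regions, which also change when a library is left out. The mean number open ranged over 14.467 to 15.733, and the regions open in KO and CHIR libraries alone over 0 to 3, with 3 when KO replicate 2 of day 3 was left out. In limma the number of regions called was 17 to 236 for KO on day 3, 0 to 3 for MUT on day 3, 460 to 1440 with CHIR, 8 to 599 with XAV, 0 to 3 for KO and 0 to 1 for MUT on day 2, and 927 to 3026 for day 3 against day 2, with 0 to 1 (XAV) and 0 to 2 (day) of them at the 3 genes. Without centring, 8 regions were called for KO on day 3, 255 with CHIR, 21 with XAV and 342 for the day. With any deposited peak the counts were 933 for KO and 8 for MUT on day 3, 6561 with CHIR, 1064 with XAV, 2 for KO on day 2 and 7539 for the day, of which 1 (Gata4 -8.7 kb) was at the 3 genes. That region was defined through day 3 libraries alone. With the replicate block (cell line), 150 regions were called with XAV, and 1 region of the 3 genes for the day, the Gata6 start. The block changed no other count by over 1.5 times, and for the open state 0 regions passed an adjusted p of 0.05 with it, as 6 lines allow no p under 0.0312, which the 848 regions that separated the days reached.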

Other observations

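The surroundings of the 3 genes held 42 other regions within 200 kb, 21 around Gata4, 10 around Gata6 and 11 around Sox17. Such a region lay beyond the 100 kb limit or nearer to a start of another gene. These were looked at after the values of the genes' own regions were seen, and no test was made on them. Upstream of Sox17, 3 regions were open on day 3 in all 4 KO and CHIR libraries and in no other library of the series, a pattern that 0.719% of all regions had. At 118.2 kb (chr1:4615337-4615679, mm10) the fold enrichments were 10.8 and 5.04 in KO cells and 12.2 and 14.9 with CHIR, and no other library had a deposited peak. At 147.8 kb they were 6.36 and 5.14 in KO cells and 5.67 and 5.76 with CHIR, and at 148.3 kb 7.04 and 4.43 in KO cells and 5.08 and 5.37 with CHIR. The regions at 147.8 and 148.3 kb are neighbours and lay nearer to a start of another gene than to Sox17. Among the 42 regions, 7 were open in both CHIR libraries and no other (1 around Gata4, 3 around Gata6 and 3 around Sox17), beside 6.81% of all regions.

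Among those 7 were 2 regions around Sox17, at 81.1 kb and 66.7 kb downstream, where the nearest gene start was that of Rp1, with 12.1 and 15.1 and with 11.9 and 12.1 in the CHIR libraries. Around Gata6, the region 152.2 kb downstream had 12.2 and 11.9. Gene assignment here is by distance alone, and which gene such a region acts on was not tested.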
